A study of Mus musculus with 16 samples.

Results

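The genes described here encode 4 hormones of the distal gut, Gcg (ENSMUSG00000000394), Pyy (ENSMUSG00000017311), Nts (ENSMUSG00000019890) and Insl5 (ENSMUSG00000066090). They were found by matching the Ensembl identifiers of the count table to mouse symbols, which gave 4 genes of 55359 identifiers. RNA came from adult male C57BL/6N mice on a high fat diet, sampled 5 weeks after tamoxifen. Mutant mice M136, M167, M168 and M177 carried floxed Neurog3 alleles with the transgene Villin-CreERT2 (Neurog3f/f; Villin-CreERT2). Control mice C133, C134, C151 and C154 carried the same floxed alleles without the transgene (Neurog3f/f). The transgene makes a tamoxifen-dependent recombinase from the Villin promoter, which is active in intestinal epithelium. Each of the 8 mice gave 1 library from the ileum and 1 from the duodenum, so there were 4 groups of n = 4: mutant ileum, control ileum, mutant duodenum and control duodenum. M and C before a number stand for mutant and control. The labels do not say whether the whole gut wall or the mucosa was taken.

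Enteroendocrine cells are single hormone-secreting cells scattered through the gut epithelium, and they arise from progenitors that switch on the transcription factor Neurog3. L cells, which become more frequent along the small intestine toward the colon, make proglucagon from Gcg and peptide YY from Pyy, and many of them also make neurotensin from Nts in the distal small intestine. In L cells the convertase encoded by Pcsk1 cuts proglucagon into the incretin GLP-1 and into GLP-2, which promotes epithelial growth, whereas islet alpha cells cut it into glucagon. Peptide YY slows gut transit and reduces food intake, neurotensin promotes fat absorption, and insulin-like peptide 5, the product of Insl5, is made by L cells of the colon and raises food intake in mice.

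Neurog3 and its target Neurod1 are basic helix-loop-helix factors, a class that binds the E-box, CANNTG on either strand. The 250 bases before the annotated start of the 3 more abundant members are shown 5′ to 3′ as RefSeq gives them on GRCm38.p6, all on the minus strand, because these members fell together in mutant ileum. Capitals mark each E-box.
Gcg: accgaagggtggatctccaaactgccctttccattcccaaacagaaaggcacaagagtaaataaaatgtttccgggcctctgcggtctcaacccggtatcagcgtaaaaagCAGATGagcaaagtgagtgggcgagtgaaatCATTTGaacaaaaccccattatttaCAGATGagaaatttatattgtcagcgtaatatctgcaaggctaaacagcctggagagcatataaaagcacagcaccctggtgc
Pyy: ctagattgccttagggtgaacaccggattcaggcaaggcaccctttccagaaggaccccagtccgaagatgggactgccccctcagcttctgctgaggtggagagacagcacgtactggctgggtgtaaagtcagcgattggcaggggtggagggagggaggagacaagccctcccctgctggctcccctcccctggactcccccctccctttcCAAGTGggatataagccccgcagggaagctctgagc
Nts: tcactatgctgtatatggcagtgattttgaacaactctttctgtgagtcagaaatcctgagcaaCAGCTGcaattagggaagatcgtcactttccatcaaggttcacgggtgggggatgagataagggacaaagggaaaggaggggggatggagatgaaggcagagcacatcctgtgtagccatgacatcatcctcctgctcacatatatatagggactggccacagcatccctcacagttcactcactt
The windows lie at chr2:62483654-62483903 for Gcg, chr11:102107833-102108082 for Pyy and chr10:102490419-102490668 for Nts. Gcg holds 3 E-boxes, and Pyy and Nts hold 1 each. An E-box occurs in 66.2% of 32851 RefSeq mouse promoters of that length, so its presence does not set these windows apart. The letters TATAAA occur in the Gcg window and not in the windows of Pyy and Nts, against 12.4% of all windows. TTTAT, a core that binds caudal-type (CDX) factors of the intestine, likewise occurs in the Gcg window only among these 3, against 37.3% of all windows. TTTAT was searched on both strands, as was TATAAA, and the motifs can overlap. A match describes the letters and not a bound site.

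The libraries held 40.9 to 67.2 M counts. Levels are counts per M (CPM, where M is 1e+06) on effective library sizes (trimmed mean of M values), and means carry the SD of n = 4 libraries. The words higher, lower, rose and fell are kept for genes with an adjusted p under 0.05 in edgeR's quasi-likelihood test, after Benjamini-Hochberg adjustment over all tested genes, except for Insl5, which was outside the fit and was tested by permutation. The targeted gene followed the labels: Neurog3 had 1, 0, 0 and 0 counts in mutant ileum, against 70, 54, 50 and 27 in control ileum, and 0, 1, 0 and 0 counts in mutant duodenum, against 128, 175, 123 and 123 in control duodenum. The tissue labels were borne out by their markers. Summed ileal markers (Fabp6, Slc10a2 and Osr2) stood at 749 to 2267 CPM in the ileum libraries and at 2.19 to 6.03 CPM in the duodenum libraries, and summed duodenal markers (Gata4, Pdx1 and Onecut2) at 14.6 to 46.4 CPM in ileum and 370 to 587 CPM in duodenum. In bulk tissue, fewer cells of a type and less RNA per cell cannot be told apart.

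**Figure D1:**
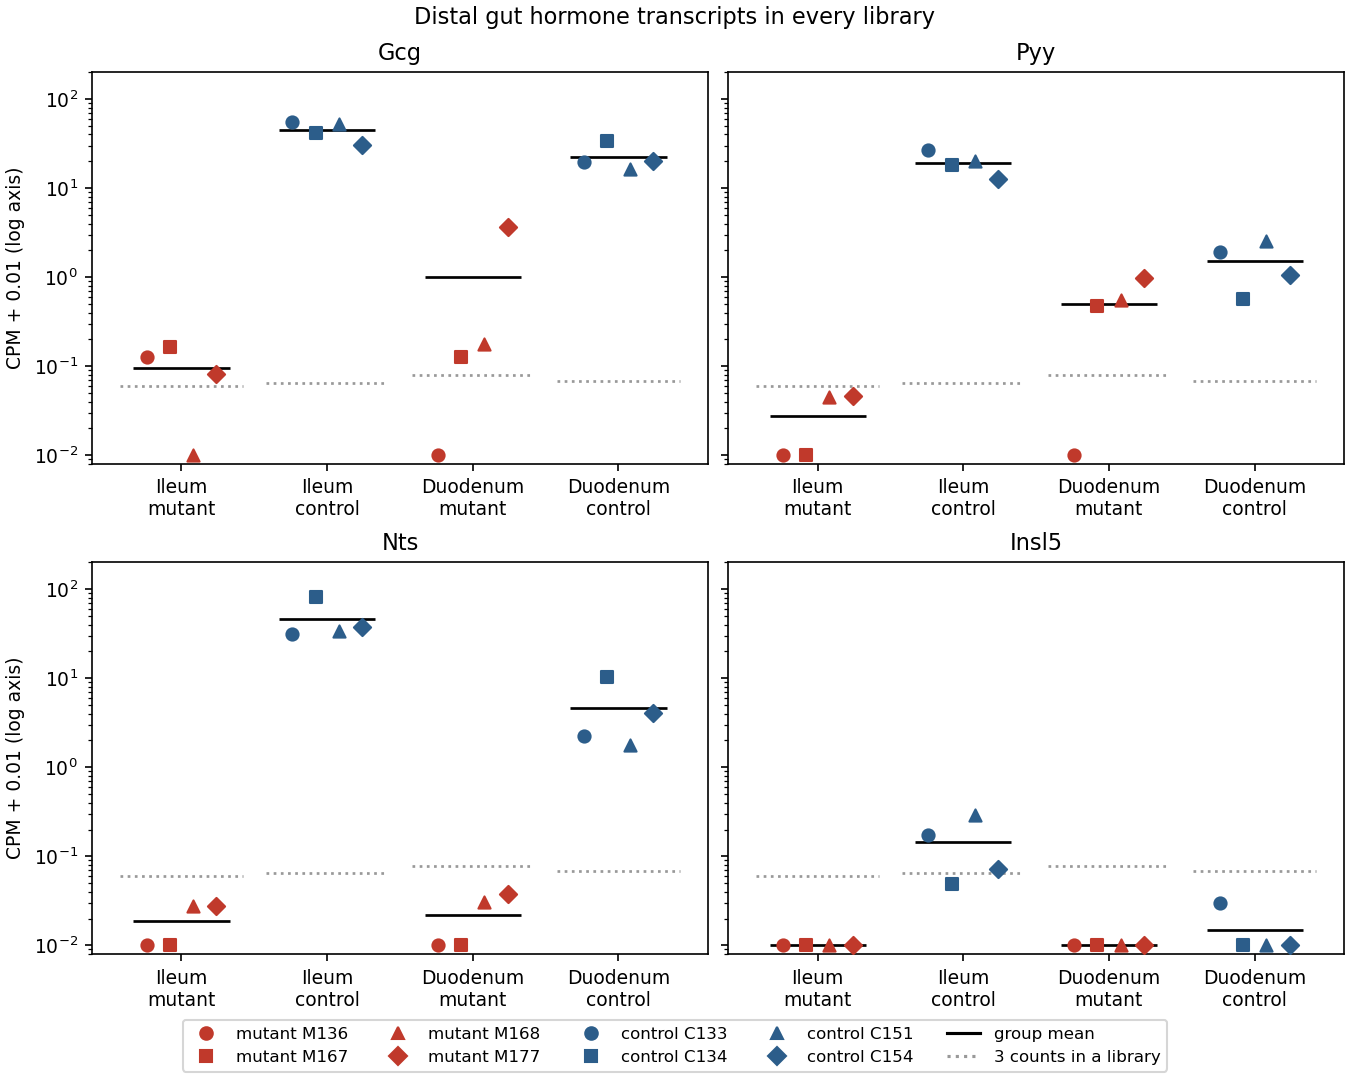
Level of each hormone gene in the 16 libraries (y axis, CPM plus 0.01, log axis), mutant in red and control in blue within each tissue; bars are group means and dotted lines the level of 3 counts in a library. In the ileum all mutant libraries lie below all control libraries for each of the 4 genes, while in the duodenum the Pyy levels of the 2 genotypes overlap.

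In control mice Gcg, Pyy and Nts were all more abundant in the ileum than in the duodenum, but by very different amounts. The ratio was smallest for Gcg in each of the 4 mice. All 3 tested members were higher in the ileum, where 28% of 18217 tested genes were higher and 30.3% lower. Insl5 was too scarce for the fit.

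Gcg stood at 54.7, 41.2, 53.1 and 30.5 CPM in control ileum (mice C133, C134, C151 and C154), and at 19.4, 33.9, 16.5 and 20.4 CPM in their duodenum. Each mouse had more in its ileum, by ratios of 2.82, 1.21, 3.22 and 1.50 in the same order of mice, yet the tissues overlapped, because the duodenum of mouse C134 exceeded the ileum of mouse C154. The log2 fold change, ileum over duodenum, was 1.01 (SE 0.27, edgeR adjusted p = 0.0138). This call rested on mice C133 and C151: it was 0.85 (adjusted p = 0.0774) without mouse C133 and 0.79 (adjusted p = 0.0746) without mouse C151.

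Pyy stood at 26.7, 18.0, 20.0 and 12.6 CPM in the ileum of the same control mice, against 1.88, 0.562, 2.53 and 1.04 CPM in their duodenum. The tissues were far apart in every mouse, with ratios of 14.2, 32.0, 7.89 and 12.1, and the log2 fold change was 3.71 (SE 0.49, edgeR adjusted p = 0.000517). Nts stood at 31.0, 81.0, 33.8 and 37.3 CPM in ileum, against 2.22, 10.3, 1.79 and 4.09 CPM in duodenum. Its ratios were 14.0, 7.90, 18.8 and 9.11, and its log2 fold change was 3.32 (SE 0.68, edgeR adjusted p = 0.00605). Mouse C134 had the highest Nts level of the control mice in both tissues. Its duodenum also stood apart in tissue markers: the summed duodenal markers were at 370 CPM, against 587, 575 and 549 CPM in mice C133, C151 and C154, and the summed ileal markers at 6.03 CPM, against 3.02, 2.68 and 2.20 CPM. Their part in the Gcg and Nts levels of mouse C134 was not tested.

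**Figure D2:**
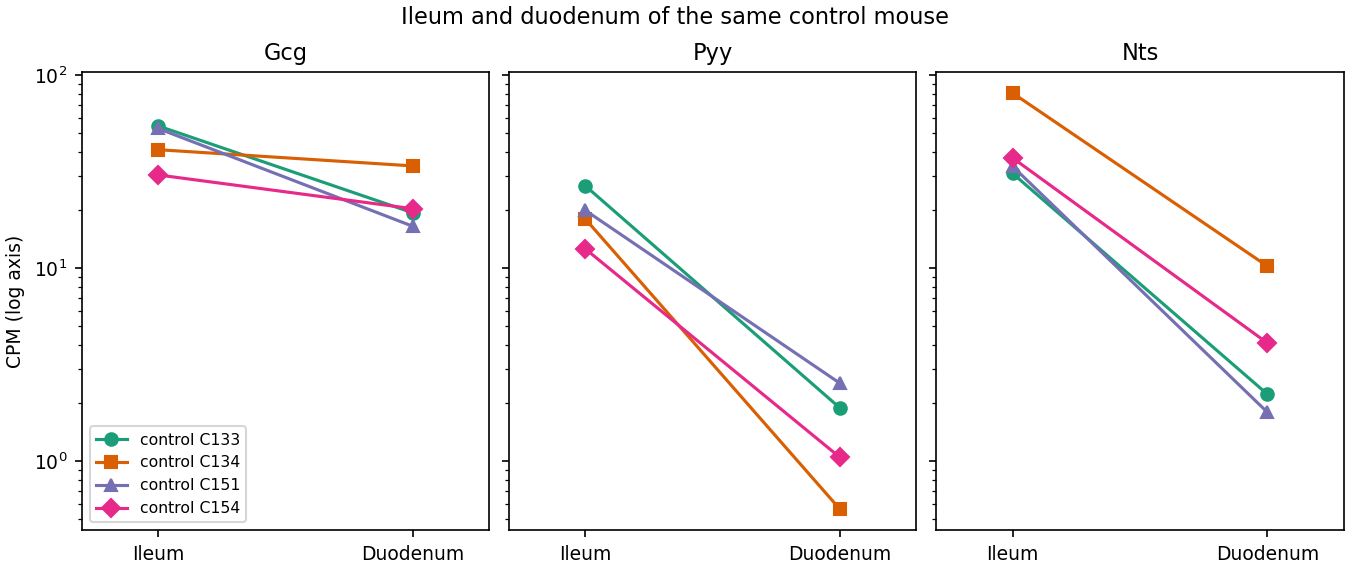
Levels of Gcg, Pyy and Nts in the ileum and duodenum of each control mouse (y axis, CPM, log axis; 1 line per mouse). All 12 lines fall toward the duodenum, shallowly for Gcg and steeply for Pyy and Nts.

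Dividing by exon length allows the genes to be set against each other. In control ileum Nts stood at 36.7 ± 18.9, Pyy at 30.6 ± 9.25 and Gcg at 30.0 ± 7.58 CPM per kilobase of exon, and these 3 levels did not differ beyond their spread. Insl5 came far behind at 0.188 ± 0.153. Sst, the gene of the inhibitory hormone somatostatin, at 29.2 ± 2.37, and Sct, the secretin gene, at 26.1 ± 5.37, lay in the same range. Gip, whose product is the incretin of the proximal gut, stood at 6.19 ± 3.30. Control duodenum had another order, with Gcg first at 15.1 ± 5.20 CPM per kilobase and Nts at 3.68 ± 3.13 and Pyy at 2.38 ± 1.39 within each other's spread. The means of all 3 lay below that of Ghrl, the ghrelin gene, at 21.4 ± 2.40, and well below that of Gip at 109 ± 28.1. Gcg and Ghrl overlapped between libraries, since Gcg reached 22.7 and Ghrl began at 19.1. Of the summed level per kilobase of Gcg, Pyy and Nts, Gcg made up 31.2 ± 6.69% in control ileum and 71.2 ± 2.97% in control duodenum, Pyy 31.6 ± 7.37% and 13.2 ± 9.36%, and Nts 37.2 ± 13.5% and 15.6 ± 7.90%.

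Control mice also differed among themselves. Relative to the group mean, the SD in control ileum was 25.3% for Gcg, 30.2% for Pyy and 51.6% for Nts, and in control duodenum it was 34.5% for Gcg, 58.1% for Pyy and 85.1% for Nts. Mouse C154 had the lowest Gcg and Pyy levels of the control ileum libraries, though not the lowest Nts level. In the duodenum mouse C134 had the highest Gcg and Nts levels and the lowest Pyy level, so the 3 transcripts did not share 1 order of mice.

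Almost no transcript of any of the 4 hormones remained in mutant ileum. Gcg, Pyy and Nts fell to between 0.0182 and 0.196% of their control levels, and Insl5 had no count in any mutant library. All 3 tested members fell, against 14.6% of 18310 tested genes that were lower and 19% that were higher.

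Gcg had 7, 11, 0 and 4 counts in mutant ileum (0.116, 0.154, 0 and 0.0718 CPM in M136, M167, M168 and M177), a mean of 0.0854 ± 0.0661 CPM, against 44.9 ± 11.3 CPM in control ileum. The ratio of control over mutant ileum was 510, with a 95% counting interval of 337 to 814, and the log2 fold change, mutant over control, was -8.91 (SE 0.45, edgeR adjusted p = 1.9e-05). Pyy had 0, 0, 2 and 2 counts in the same mutant libraries, a mean of 0.0177 ± 0.0205 CPM, against 19.3 ± 5.84 CPM in control ileum. Its control over mutant ratio was 1222 (interval 477 to 4487) and its log2 fold change -10.00 (SE 0.47, edgeR adjusted p = 4.38e-06). Nts had 0, 0, 1 and 1 counts in mutant ileum, against 2111, 4228, 1800 and 1804 counts in control ileum (C133, C134, C151 and C154). Its control over mutant ratio was 5484, the interval running from 1518 to 45288 (edgeR adjusted p = 3.22e-05). These intervals cover counting error only. No mutant library came near a control library for any of the 3 genes, and each was lower in 4 of 4 mutant mice.

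Insl5 marks L cells of the colon and was barely detected here. It had no count in the 4 mutant ileum libraries, against 11, 2, 15 and 3 counts in control ileum (mice C133, C134, C151 and C154; 0.162, 0.0383, 0.281 and 0.0621 CPM). Set against a floor of 3 counts over the mutant group, its ratio of control over mutant ileum was 11.4, and the exact counting interval of the ratio began at 8.73. For Insl5 in the ileum the exact two-sided permutation test gave p = 0.0286, the smallest that 4 against 4 libraries allow. In the duodenum it had 0 counts in the mutant libraries and 1, 0, 0 and 0 counts in the control libraries, so no difference was detectable at this depth. Within control mice it had 31 counts in the ileum and 1 in the duodenum, a ratio of 29.4 (counting interval 4.90 to 1198). Of the colon markers, Hoxb13 was at 0 in all control ileum libraries, whereas none of the 4 colon markers was at 0 in the ileum of mutant mouse M167. The summed level of 4 colon markers overlapped between mutant ileum, at 46.1, 82.8, 37.4 and 89.5 CPM, and control ileum, at 73.2, 48.2, 70.4 and 38.2 CPM.

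Markers of other cell types that could carry these peptides overlapped between the genotypes in the ileum. Neurotensin and peptide YY are also known from neurons, and 8 markers of enteric neurons summed to 49.0 to 70.9 CPM in mutant ileum and 54.4 to 82.0 CPM in control ileum. Summed epithelial markers (Epcam, Cdh1, Vil1, Krt8 and Krt20) stood at 6435 to 8283 CPM in mutant ileum and 6489 to 7423 CPM in control ileum, so both lists overlapped between genotypes. The 8 enteroendocrine markers summed to 45.6 ± 8.61 CPM in mutant ileum and 116 ± 18.1 CPM in control ileum, with no overlap of libraries. Cpe, a carboxypeptidase that neurons also make, held most of the mutant sum, at 44.2 ± 8.56 CPM in mutant ileum and 64.4 ± 10.9 CPM in control ileum. The other 7 markers summed to 1.43 ± 0.417 CPM in mutant ileum and 51.4 ± 11.4 CPM in control ileum.

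In mutant duodenum Nts fell to 0.227% of its control level. Gcg, at 3.53%, and Pyy, at 31.8%, did not pass the test. The Nts call was 1 of 3 tested members, where 5.11% of 17611 tested genes were lower and 3.44% higher.

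Nts had 0, 0, 1 and 1 counts in mutant duodenum (M136, M167, M168 and M177), against 111, 639, 85 and 208 counts in control duodenum (C133, C134, C151 and C154). Its control over mutant ratio was 440, with a counting interval of 121 to 3638 (log2 fold change -8.35, SE 0.96, edgeR adjusted p = 0.00305). Without mutant mice M167 and M177 the adjusted p was 0.0789.

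Gcg stood at 0, 0.117, 0.167 and 3.64 CPM in the mutant duodenum libraries (0, 5 and 8 counts in the first 3), against 19.4, 33.9, 16.5 and 20.4 CPM in the control duodenum libraries. All mutant libraries lay below all control libraries, but mouse M177 alone held most of the 146 counts of its group. The control over mutant ratio of the summed levels was 28.3 (counting interval 24.0 to 33.6), and the log2 fold change was -4.57 (SE 1.32, edgeR adjusted p = 0.0808). Without mouse M177 the log2 fold change was -7.86 (SE 0.62, edgeR adjusted p = 0.00168).

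Pyy stood at 0, 0.468, 0.543 and 0.958 CPM in the mutant duodenum libraries (0, 20, 26 and 35 counts), against 1.88, 0.562, 2.53 and 1.04 CPM in the control duodenum libraries. The genotypes overlapped, since mutant mouse M177 exceeded control mouse C134. The control over mutant ratio of the summed levels was 3.15 (counting interval 2.45 to 4.07; log2 fold change -1.61, SE 0.84, edgeR adjusted p = 0.245). Leaving out each mouse in turn gave log2 fold changes of -2.14 to -1.17 with no adjusted p below 0.157. The 8 enteroendocrine markers summed to 36.3 ± 8.14 CPM in mutant duodenum and 182 ± 24.3 CPM in control duodenum, of which Cpe held 33.0 ± 8.29 and 45.9 ± 7.15 CPM. The 7 markers other than Cpe summed to 0.615 to 6.24 CPM in mutant duodenum and 116 to 155 CPM in control duodenum, and the 8 enteric neuron markers to 24.2 to 44.4 CPM in mutant and 30.7 to 34.6 CPM in control libraries.

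**Figure D3:**
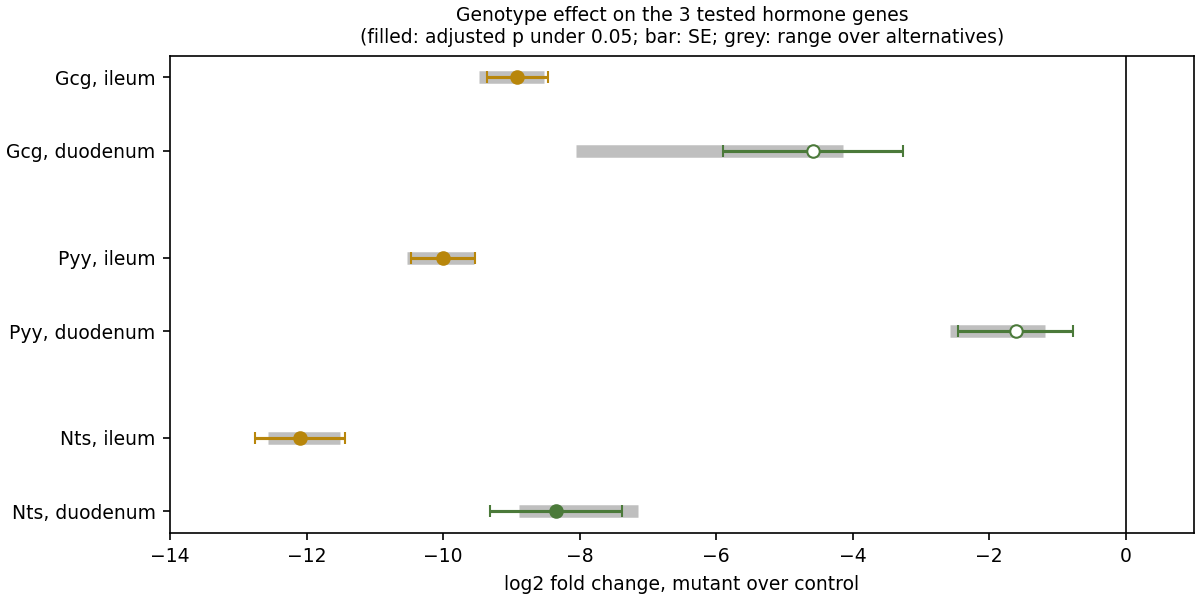
Log2 fold change, mutant over control, of Gcg, Pyy and Nts in each tissue (x axis), with the SE as a bar and the range over all alternative settings in grey; filled points have an adjusted p under 0.05. The 3 ileum values lie between -12.09 and -8.91, and of the duodenum values that of Pyy, -1.61, is nearest to 0.

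Transcripts of pancreatic islets varied among the same duodenum libraries. Islet beta cells make the insulins Ins1 and Ins2 and amylin (Iapp), islet PP cells make pancreatic polypeptide (Ppy), and islet cells are a known source of Gcg and, in mice, of Pyy. Ins2 stood at 0.159, 4.49, 8.40 and 17.2 CPM in mutant duodenum (M136, M167, M168 and M177), against 4.79, 0, 2.09 and 0 CPM in control duodenum (C133, C134, C151 and C154). Ppy stood at 0, 0.585, 0.815 and 2.85 CPM in the mutant libraries, against 0.240, 0, 0.422 and 0 CPM in the control libraries. In the mutant duodenum Gcg, Pyy, Ins2 and Ppy thus put the 4 mice in 1 order, lowest in mouse M136 and highest in mouse M177. In the control duodenum the Pyy levels of mice C134 and C154, where Ins2 and Ppy had no count, lay below those of mice C133 and C151. Gcg went the other way there, at 33.9 and 20.4 CPM in mice C134 and C154, against 19.4 and 16.5 CPM in mice C133 and C151.

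The whole list of 7 islet markers summed to 0.377, 8.87, 13.7 and 31.1 CPM in mutant duodenum, against 8.67, 1.25, 4.64 and 1.10 CPM in control duodenum. Of its 7 genes, 4, 1, 0 and 0 were at 0 in the mutant libraries, against 0, 5, 1 and 5 in the control libraries. Iapp alone stood at 1.28, 1.22, 0.906 and 1.06 CPM in control duodenum (C133, C134, C151 and C154). It thus held most of the sums of mice C134 and C154. In the ileum the list summed to 0.0331 to 0.825 CPM in mutant and 0.579 to 0.955 CPM in control libraries. Irx2, a transcription factor of alpha cells, was at 0 in all mutant and all control duodenum libraries. Ins1 and Iapp shared the order of Ins2 and Ppy among mutant mice M136, M167, M168 and M177. Ins1 stood at 0, 2.29, 2.82 and 7.25 CPM and Iapp at 0.0198, 1.24, 1.46 and 3.285 CPM. Slc30a8 did so as well, at 0, 3, 5 and 6 counts. Some other pancreatic markers did not share that order. Mafa, a beta cell factor on the islet list, stood at 0.198, 0.187, 0.104 and 0.110 CPM in mutant duodenum (M136, M167, M168 and M177), against 0.120, 0.0321, 0.0211 and 0.0394 CPM in control duodenum (C133, C134, C151 and C154), so it was highest in mouse M136. The 6 alpha cell markers, Gcg included, summed to 69.7, 79.2, 62.6 and 73.7 CPM in the mutant libraries, against 131, 115, 111 and 96.3 CPM in the control libraries. Digestive enzyme transcripts of the exocrine pancreas (10 genes) summed to 7538, 168698, 37119 and 163220 CPM in the mutant libraries, highest in mouse M167, against 26497, 72.9, 16763 and 76.4 CPM in the control libraries. The part of pancreatic transcripts in the Gcg and Pyy levels was not tested.

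**Figure D4:**
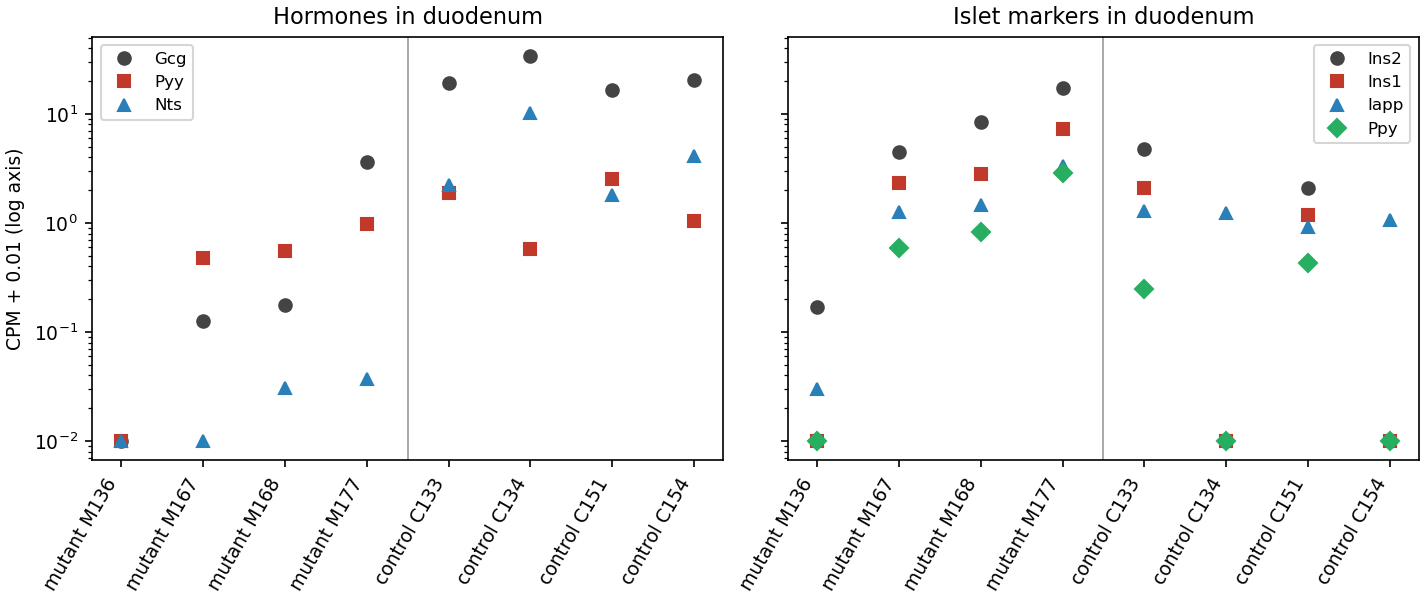
Levels in each duodenum library (y axis, CPM plus 0.01, log axis) of Gcg, Pyy and Nts on the left and of the islet genes Ins2, Ins1, Iapp and Ppy on the right, mutant mice left of control mice in each panel. Gcg, Pyy and the islet genes are lowest in mutant mouse M136 and highest in mutant mouse M177 among the mutant libraries, while Nts has at most 1 count in each of them.

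The difference in Pyy level between the genotypes was larger in the ileum than in the duodenum. The difference of the log2 fold changes, ileum minus duodenum, was -8.38 (SE 1.26, edgeR adjusted p = 0.00512), from -10.00 in ileum and -1.61 in duodenum as fitted within each tissue. This was 1 of 3 tested members, against 4.13% of 19289 tested genes with a negative and 4.86% with a positive difference past the threshold. The call was lost without mutant mice M167 and M177 (-7.50, edgeR adjusted p = 0.0558) and without control mice C134 and C154 (-8.12, edgeR adjusted p = 0.0725), both as pairs. In mutant duodenum Pyy shared its order of mice with Ins2 and Ppy, and the part of pancreatic transcripts in this difference was not tested. The difference did not pass for Gcg, at -4.34 (SE 1.52, edgeR adjusted p = 0.0847), and without mouse M177 it was -0.98. It did not pass for Nts, at -3.70 (SE 3.44, edgeR adjusted p = 0.488), where both mutant groups held 2 counts.

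In mutant mice Pyy had more of its few remaining counts in the duodenum, while the split of Gcg between the tissues hung on 1 mouse. Gcg had 22 counts in mutant ileum and 146 in mutant duodenum, a ratio of duodenum over ileum of 9.15 (counting interval 5.82 to 15.0). Mouse M177 carried that direction: without it Gcg had 18 counts in mutant ileum and 13 in mutant duodenum. Pyy had 4 counts in mutant ileum and 81 in mutant duodenum, a ratio of 27.9 (interval 10.5 to 105), and without mouse M177 it had 2 and 46. Nts had 2 counts in each, a ratio of 1.38 (interval 0.0999 to 19.0). No member passed the low count filter between the tissues of mutant mice, so these ratios describe the libraries and carry no test.

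Over all 16 libraries, the genes whose centred log2 CPM profiles lay nearest to that of Gcg included several that endocrine cells of many kinds express. Among 14223 genes with a mean of at least 1 CPM, the root mean square difference from Gcg was 1.58 log2 units for Neurod1, 1.65 for Nts, 1.76 for Adgrg4, an adhesion receptor, and 1.77 and 1.78 for the granule protein genes Chga and Chgb. For scale, the profile of Gcg itself has a root mean square of 4.04. Nearest to Pyy was Ffar1, a long-chain fatty acid receptor, at 1.51, then Gcg and Chga at 1.95 each, ccdc198 at 1.96 and Nts at 2.08, beside 3.27 for the Pyy profile itself. Nearest to Nts were Gcg at 1.65, Neurod1 at 1.72, Ffar1 at 1.93, Adgrg4 at 1.94 and Pyy at 2.08, beside 4.26 for Nts itself. Gcg, Pyy and Nts were thus each among the 5 nearest genes of one another, except that Pyy was not among those of Gcg. The profile of Insl5 has a root mean square of 0.94, held low by the prior count of 2 added to its few counts. Insl5 had 31 counts in control ileum, 1 in control duodenum and none in either mutant group. Its nearest genes, Npr3, Bhlhe41, Ntrk2, Itga11 and Ecm2, at 0.47 to 0.52, are genes with their highest mean in control ileum. These likeness values are descriptions, and all libraries of a group share a genotype and a tissue.

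The other genes that serve these hormones did not all follow them. Of 11 genes for prohormone processing and secretory granules, 8 fell in mutant ileum and none rose (median log2 fold change -0.78, against -0.03 over all tested genes). In mutant duodenum 6 fell and none rose (median -0.80, against 0.02). Of all tested genes, 14.6% were lower and 19% higher in mutant ileum, and 5.11% lower and 3.44% higher in mutant duodenum. The log2 fold change in the ileum was -6.12 for Chgb and -4.85 for Chga, which encode granule proteins (edgeR adjusted p = 6.74e-05 and 9.28e-06). Pcsk1, which frees GLP-1 from proglucagon, fell to 11.2 ± 2.24 CPM in mutant ileum, against 30.7 ± 3.51 CPM in control ileum (log2 fold change -1.43, edgeR adjusted p = 0.000103), and Scg3, a granule protein, fell by 1.20 (edgeR adjusted p = 0.000294). Without control mice C134 and C154 the number that fell in the duodenum was 2.

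Of 13 transcription factors of endocrine and L cells, 12 were tested in the ileum. There 8 fell and 1 rose (median -4.97), against 14.6% of all tested genes lower and 19% higher. In the duodenum 13 were tested, where 9 fell and none rose (median -3.81), against 5.11% of all tested genes lower and 3.44% higher. Neurog3, the targeted gene, is counted among those that fell in both tissues. Neurod1 had no count in mutant ileum, against 4.22 ± 1.04 CPM in control ileum (edgeR adjusted p = 2.58e-05). Nkx2-2 and Rfx6, which act downstream of Neurog3, had log2 fold changes of -4.90 and -5.62 in the ileum (edgeR adjusted p = 5.05e-05 and 6.1e-05). The gene that rose was Foxa1, at 42.6 ± 1.88 CPM in mutant ileum, against 31.1 ± 6.05 CPM in control ileum (log2 fold change 0.48, edgeR adjusted p = 0.0131). It was chosen after its values were seen, and its call was lost with either M167 and M177 or C134 and C154 left out.

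Of 11 nutrient and bile acid sensors of L cells, 9 were tested in the ileum. There 5 fell and 1 rose (median -1.06), against 14.6% of all tested genes lower and 19% higher. In the duodenum 8 were tested, where 3 fell and none rose (median -0.49), against 5.11% of all tested genes lower and 3.44% higher. Ffar1 stood at 0.0201 ± 0.0156 CPM in mutant ileum, against 2.99 ± 0.849 CPM in control ileum (log2 fold change -7.03, edgeR adjusted p = 1.41e-05), and Casr, the calcium-sensing receptor, fell by 3.82 (edgeR adjusted p = 0.000595). Slc15a1, an enterocyte peptide transporter, fell to 223 ± 53.5 CPM in mutant ileum, against 677 ± 327 CPM in control ileum (log2 fold change -1.58, edgeR adjusted p = 0.00631). Ffar4, another long-chain fatty acid receptor, was the gene that rose, at 7.58 ± 1.50 CPM in mutant ileum, against 4.33 ± 0.643 CPM in control ileum (log2 fold change 0.83, edgeR adjusted p = 0.00409). Its genotype effect differed between the tissues (ileum minus duodenum 1.41, SE 0.28, edgeR adjusted p = 0.0114).

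**Figure D5:**
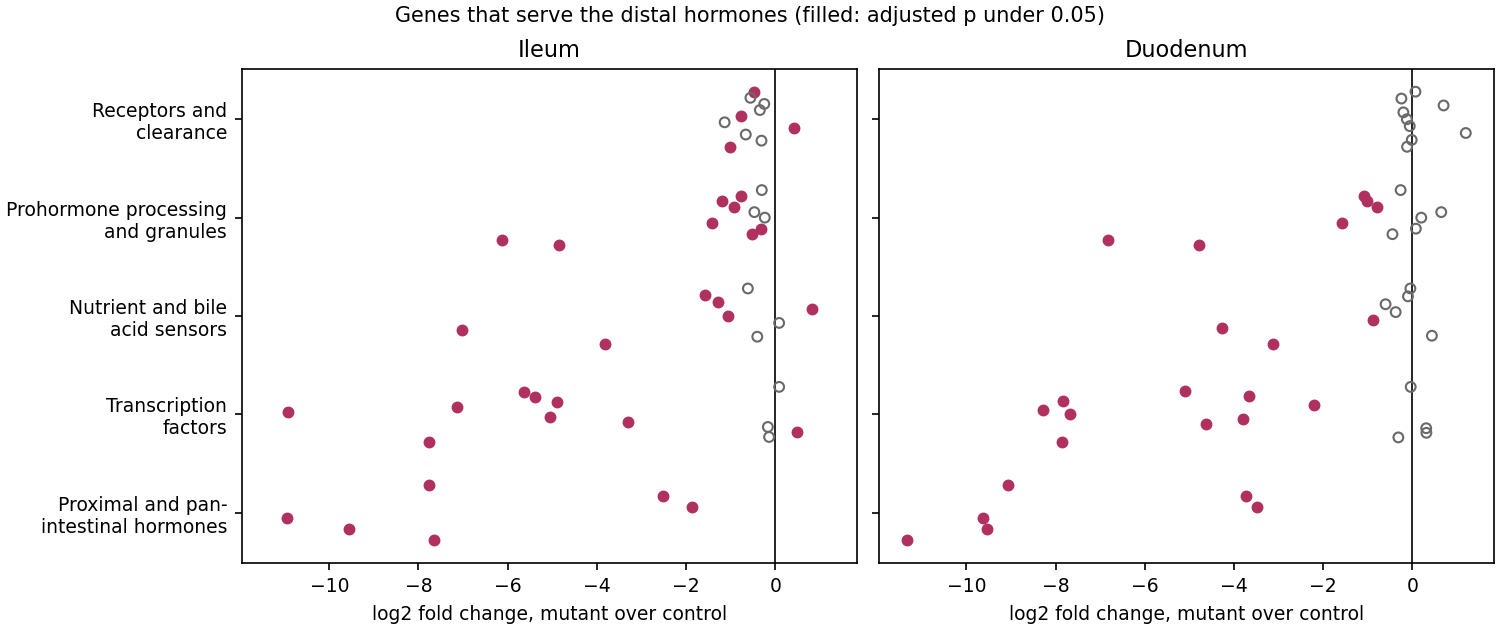
Log2 fold change, mutant over control, of each tested gene of 5 lists (x axis) in ileum and duodenum; filled points have an adjusted p under 0.05 and vertical spread within a list only separates points. Of the 5 lists, receptor and clearance genes have the median nearest to 0 in each tissue (-0.52 in ileum and -0.06 in duodenum). All 6 proximal and pan-intestinal hormone genes fell in both tissues, against 14.6% of all tested genes in ileum and 5.11% in duodenum.

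Too few genes that receive or clear the hormones were called in mutant ileum to set their shares apart from those of all genes. Of 15 receptor and clearance genes, 10 were tested in the ileum, where 3 fell and 1 rose (median -0.52), against 14.6% of all tested genes lower and 19% higher, and 9 in the duodenum, where none passed edgeR's test in either direction (median -0.06). Dpp4, the peptidase that inactivates GLP-1 and trims peptide YY, fell to 436 ± 80.6 CPM in mutant ileum, against 890 ± 152 CPM in control ileum (log2 fold change -1.01, SE 0.16, edgeR adjusted p = 0.000895). Sort1, a neurotensin-binding sorting receptor, stood at 335 ± 12.1 CPM in mutant ileum, against 477 ± 59.8 CPM in control ileum (log2 fold change -0.48, edgeR adjusted p = 0.00551). Npy1r, a receptor for peptide YY and neuropeptide Y, fell by 0.76 (edgeR adjusted p = 0.0485). Glp2r, the GLP-2 receptor, rose to 21.0 ± 1.75 CPM in mutant ileum, against 16.1 ± 2.43 CPM in control ileum (log2 fold change 0.41, edgeR adjusted p = 0.0223), a call that was lost with either M167 and M177 or C134 and C154 left out. Between the tissues of control mice, 6 of the 10 tested receptor and clearance genes were higher and 3 lower in the ileum, against 28% and 30.3% of all tested genes. Among them were Dpp4 (log2 fold change 0.73) and Sort1 (0.76) higher, and Mme, which encodes the peptidase neprilysin (-2.70), and Glp1r, the GLP-1 receptor (-1.87), lower.

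As a comparison, all 6 proximal and pan-intestinal hormone genes (Gip, Cck, Ghrl, Sct, Sst and Tph1) fell in mutant ileum and in mutant duodenum. Of all tested genes, 14.6% were lower in mutant ileum and 5.11% in mutant duodenum. All 6 hormone genes were also lower in the ileum than in the duodenum of control mice (30.3% of all tested genes), the opposite of Gcg, Pyy and Nts. Their genotype effects differed between the tissues for Sct (ileum minus duodenum 1.61, edgeR adjusted p = 0.00364) and Sst (1.21, edgeR adjusted p = 0.00555), both toward a smaller fall in the ileum. Of 13 other peptide genes of the neuropeptide Y, secretin, neuromedin and relaxin and insulin groups, 7 were tested in the ileum, where 2 fell (14.6% of all tested genes were lower), and 8 in the duodenum, where 1 fell (5.11% of all tested genes were lower). Npy, a neuronal relative of Pyy, fell by 1.69 in the ileum (edgeR adjusted p = 0.0196) and by 1.09 in the duodenum (edgeR adjusted p = 0.0469), and Vip, a relative of Gcg made by enteric neurons, fell by 1.25 in the ileum (edgeR adjusted p = 0.000158). With C134 and C154 left out none of these genes passed in the duodenum, and with either C134 and C154 or M167 and M177 left out 1 did in the ileum.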

How the data were processed

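Total RNA was depleted of ribosomal RNA and made into stranded libraries, per the labels' protocols. Per the submitters' processing notes reads were handled with STAR 2.5.3a, HTSeq 0.6.1p1, cutadapt 1.10 and Bowtie2 2.2.8 on mm39, and the strand setting of the counting is not given in the sources used here. Deposited were the authors' raw counts per gene for 55359 Ensembl identifiers in 16 libraries, used as they stand. GENCODE M21 (GRCm38) gave symbols for 52083 identifiers and exon lengths, and unnamed identifiers held 1.02% of counts. In it no annotated gene overlaps the 4 members.

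Each comparison was fitted with edgeR 4.0.16 (filterByExpr, trimmed mean of M values, robust quasi-likelihood F test, Benjamini-Hochberg over all tested genes), for genotype within a tissue (8 libraries), tissue within a genotype (8) and their interaction (16). The labels name no batch. Library numbers recur in both tissues and are read as mice: residuals of the same mouse correlated at r of 0.221 to 0.481, and each of 8 mice correlated best with itself. Alternatives were DESeq2 1.42.0, its size factors, limma-voom (limma 3.58.1), other low count filters, the mouse as a block, all 16 libraries in 1 fit, and libraries left out.

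Named genes are the 4 members, Neurog3, up to 4 genes per list with the smallest p in a comparison, and the 5 most similar genes (prior count 2). 1 marker is not reported here. The members and lists were chosen with earlier results of these data known.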

Additional observations from a re-analysis of the deposited data

Results flagged for a closer look

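In groups of 4 libraries, a highest or lowest library was set apart where its gap to the next one, divided by the range of the group, exceeded Dixon's 95% critical value. This was checked for 16 groups (4 genes in 4 groups), of which chance sets apart about 1 in 20. Gcg in mutant duodenum was set apart by mouse M177 at 3.64 CPM, the library with the highest Ins2 level. Nts in control ileum was set apart by mouse C134 at 81.0 CPM, the mouse that also had the highest Nts level in control duodenum, 10.3 CPM. Insl5 in control duodenum was set apart by mouse C133 at 0.02002 CPM, which is 1 count beside 3 libraries with none. The genotype effect on Pyy differed between the tissues, with a difference of log2 fold changes, ileum minus duodenum, of -8.38 (edgeR adjusted p = 0.00512). The part of pancreatic transcripts in this difference was not tested.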

How the results depend on the processing

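Of 179 alternative tests of Gcg, Pyy and Nts, 11 changed the side of the threshold and none reversed the direction. In the ileum the log2 fold changes, mutant over control, kept both under every alternative, at -9.47 to -8.53 for Gcg, -10.53 to -9.55 for Pyy and -12.56 to -11.51 for Nts. For Gcg in the duodenum the fall passed the threshold with limma-voom (-7.15, adjusted p = 0.0235), with all 16 libraries in 1 fit (-4.60, 0.00984) and without mutant mice M167 and M177 (-8.05, 0.0163), and leaving out 1 mouse gave -7.86 to -4.13, where only the fit without mouse M177 passed. Over all alternatives its adjusted p ran from 0.00168 to 0.282, and DESeq2 gave none, which was counted as no change. The Nts fall in the duodenum did not pass without mice M167 and M177 (-8.50, 0.0789), and ran from -8.88 to -7.58 with 1 mouse left out. The Gcg difference between tissues of control mice did not pass with all 16 libraries in 1 fit (0.9995, 0.295), ran from 0.79 to 1.35 with 1 mouse left out, and was 1.62 (1.71e-07) without mice C134 and C154. The genotype by tissue difference of Gcg passed with DESeq2 (-4.50, 0.0483) and ran from -5.19 to -0.98 with 1 mouse left out. That of Pyy did not pass without mice M167 and M177 (-7.50, 0.0558) or without mice C134 and C154 (-8.12, 0.0725), and ran from -8.83 to -7.95 with 1 mouse left out. The Insl5 difference in the ileum was -0.168 to -0.0873 CPM with 1 mouse left out, where the smallest exact p that fewer libraries allow is 0.0571, and in the duodenum it ran from -0.00667 to 0 CPM. The cause of these shifts was not tested.

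With the mouse as a replicate block no call of a member changed: the log2 fold changes of ileum over duodenum in control mice were 1.02 for Gcg, 3.79 for Pyy and 3.51 for Nts, and the genotype by tissue differences were -3.86, -8.51 and -3.88. The block moved the genotype by tissue counts over all genes from 938 higher and 796 lower to 2090 and 1937. Over the alternatives these counts ran from 14 to 2090 and from 8 to 1937, and in the duodenum from 37 to 1376 higher and 163 to 1579 lower, so the shares of all genes quoted beside the members depend on the setting. Without the low count filter Insl5 stood at -5.99 in the ileum (adjusted p = 0.00379), and the difference of Pyy between the tissues of mutant mice, ileum over duodenum, at -4.65 (0.0308). Depth limits what can be said of Insl5, and of Nts in mutant mice, to a few counts.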
